A study of Mus musculus with 2 samples.

Results

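The endocannabinoid receptors and enzymes examined here are 7 genes, taken by symbol from the main expression table, and all 7 were found among its 22740 genes. They are the receptor genes Cnr1 and Cnr2, the genes Napepld and Faah for the making and breakdown of anandamide, and the genes Dagla, Daglb and Mgll for the making and breakdown of 2-arachidonoylglycerol. Poly-A RNA of the whole uterus was sequenced from 2 C57BL/6 mice labelled WT on day 4 of pregnancy, 1 library per mouse. The numbers in their labels name them here, as uterus 1 and uterus 2. No treatment, transgene or mutant group is part of the design, and the age of the mice is not given in the sources used here. The data therefore give the level of each gene at this stage and how far 2 animals differed, with no contrast between conditions.

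Endocannabinoids are lipids cut from membrane phospholipids on demand and broken down again by hydrolases, so the balance of synthetic and hydrolytic enzymes sets their local amount. They act on CB1 and CB2, receptors that couple to inhibitory G proteins, of which CB1 is best known from neurons and CB2 from leukocytes. In the mouse, uterine anandamide is known to be kept low where the blastocyst implants, and either too much or too little CB1 signalling disturbs passage through the oviduct and implantation.

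Values are the authors' RPKM, reads scaled to transcript length and library size, and they are printed as mean ± SD over the 2 uteri. Whole reads were estimated from the steps in the deposited numbers, with a common factor per gene chosen by transcript length, and summed to 3848979 in uterus 1 and 4291443 in uterus 2. These sums lie slightly above the scaling totals of 3834174 and 4256101 found for the libraries, and the smallest possible reads sum to 3429319 and 3823896. For a transcript of the length used for Mgll, 1 read was worth 0.0564 RPKM in uterus 1 and 0.0508 RPKM in uterus 2. Intervals printed in brackets are exact 95% intervals and cover counting error only, since copies made by PCR are not independent molecules. The label of the tissue was checked against marker genes. All 4 uterine markers (Pgr, Esr1, Hoxa10 and Hoxa11) lay above 1 RPKM in both libraries, with summed levels of 375 and 351 RPKM. In bulk tissue, fewer cells of a type and less RNA per cell cannot be told apart.

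Promoter sequences are shown for 3 genes, since among the first windows of the 6 matched genes those of Cnr1 and Cnr2 held the most and the fewest CG pairs and Mgll was the 1 gene of the 6 tested whose reads differed between the uteri beyond counting error. Each is the 250 bases before the first annotated start in the transcript's direction, from RefSeq on build GRCm38.p6, written 5′ to 3′ with CG pairs in capitals. The windows lie on the plus strand at chr4:33924014-33924263 (Cnr1), chr4:135894939-135895188 (Cnr2) and chr6:88724162-88724411 (Mgll).
Cnr1: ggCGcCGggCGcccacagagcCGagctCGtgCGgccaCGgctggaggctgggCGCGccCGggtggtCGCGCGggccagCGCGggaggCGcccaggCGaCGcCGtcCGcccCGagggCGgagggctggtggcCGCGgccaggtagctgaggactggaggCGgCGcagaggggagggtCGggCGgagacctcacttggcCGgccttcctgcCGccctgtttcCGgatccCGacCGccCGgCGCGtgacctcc
Cnr2: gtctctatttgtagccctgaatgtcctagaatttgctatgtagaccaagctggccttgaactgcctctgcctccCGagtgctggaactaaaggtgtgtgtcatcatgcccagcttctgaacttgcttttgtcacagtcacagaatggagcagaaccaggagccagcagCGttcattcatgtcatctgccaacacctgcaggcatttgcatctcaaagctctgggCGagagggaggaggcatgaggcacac
Mgll: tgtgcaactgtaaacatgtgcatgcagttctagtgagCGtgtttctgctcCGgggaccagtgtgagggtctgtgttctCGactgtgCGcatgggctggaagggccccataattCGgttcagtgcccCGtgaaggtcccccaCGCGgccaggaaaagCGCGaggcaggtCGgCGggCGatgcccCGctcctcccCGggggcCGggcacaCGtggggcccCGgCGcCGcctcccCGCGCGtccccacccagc

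Counted over the whole annotated window of 300 bases, which adds 50 bases after the start, the first Cnr1 window held 40 CG pairs and the first Cnr2 window 3. Of all 32851 mouse promoter windows in the same RefSeq set, 3.91% held at least as many as Cnr1 and 76.7% at least as many as Cnr2. The median window held 7. A second Cnr1 window held 33 pairs and the furthest downstream held 5, whereas both Cnr2 windows held 3. Among the enzymes, the Mgll windows held 32 and 42 pairs, Napepld 28, Faah 16 and Daglb 11. Dagla was not matched. Each of these 4 enzyme genes lay above the median window, and so did 2 of the 3 Cnr1 windows, although Cnr1 had the lowest level of the 7 genes.

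**Figure D1:**
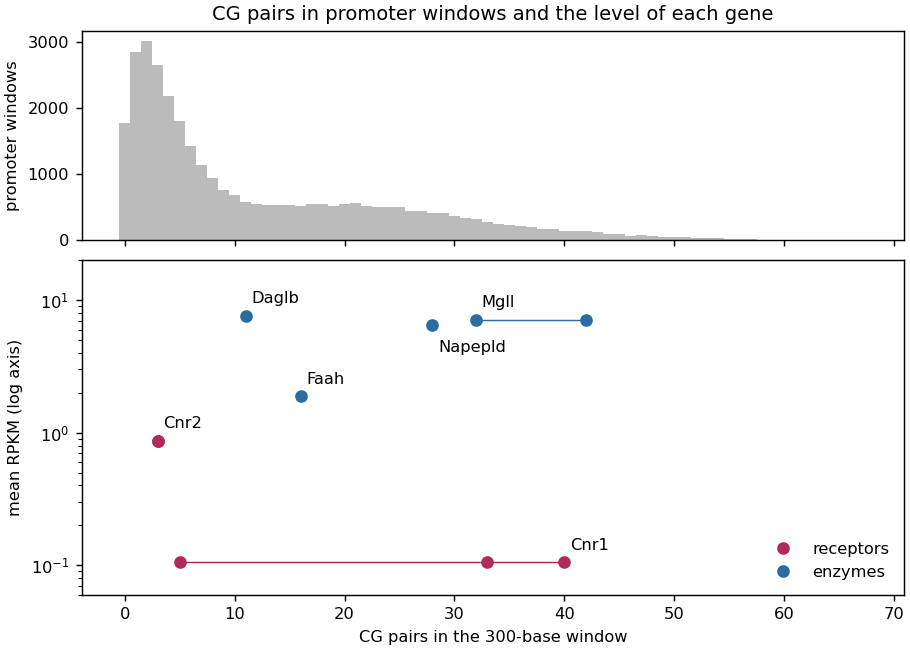
The upper panel counts all promoter windows by their number of CG pairs in 300 bases, and the lower panel places each gene's windows by that number and by the gene's mean RPKM in the uterus (log axis). Lines join windows of 1 gene. Cnr1, at 0.106 RPKM, has windows with 40, 33 and 5 pairs, and both Cnr2 windows lie at 3.

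Of the 7 genes, 5 reached 1 RPKM in both uteri (71.4%), against 58.4% of all genes in the table and 61.6% of those with a protein-coding NM_ identifier. All 5 enzyme genes were among them and neither receptor gene was. A set of 7 genes is too small to tell its share from those of the table. The 7 genes had a median of 2.08 RPKM in uterus 1 and 2.04 RPKM in uterus 2, below the medians of 3.28 and 3.23 RPKM over all genes. From high to low by mean the order was Daglb, Mgll, Napepld, Dagla, Faah, Cnr2 and Cnr1. The range of Mgll over the uteri spanned both Daglb and Napepld. Daglb lay above Napepld without overlap between the uteri, but their counting intervals overlapped in each library. Dagla and Faah did not overlap between the uteri, but lay close together with widely overlapping counting intervals. Each of the steps from Napepld to Dagla, from Faah to Cnr2 and from Cnr2 to Cnr1 left no overlap between the uteri, although the counting intervals of Faah and Cnr2 overlapped.

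**Figure D2:**
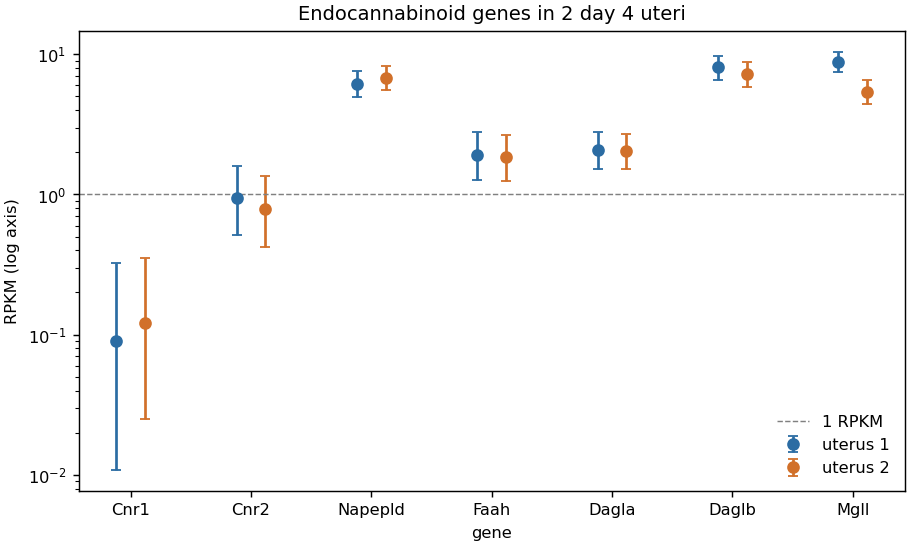
Each gene's RPKM (log axis) in uterus 1 and uterus 2, with exact 95% Poisson intervals from the recovered reads as bars and 1 RPKM as the dashed line. Daglb, Mgll and Napepld lie between 5.38 and 8.85 RPKM, Dagla and Faah near 2, Cnr2 just under 1 and Cnr1 near 0.1.

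Transcripts of the receptor genes were scarce. Cnr1 encodes CB1 (NM_007726, chromosome 4, 34011607 to 34035806 on NCBIM37, plus strand, 2 exons in the matching transcript). Its level was 0.0898 RPKM in uterus 1 and 0.121 RPKM in uterus 2, or 0.106 ± 0.0223 (SD, n = 2). These values rest on 2 reads and 3 reads, no more than the 3 reads that a count of 0 would allow. The upper ends of the intervals were 0.324 and 0.355 RPKM, so a level of 1 RPKM lies outside the counting error of either library. By mean level Cnr1 ranked 16568 of 22740 genes, at percentile 27.1.

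Cnr2 encodes CB2 (NM_009924, chromosome 4, 135451319 to 135476125, plus strand, 2 exons). Uterus 1 held 14 reads, or 0.946 RPKM, and uterus 2 held 13, or 0.791 RPKM, giving 0.869 ± 0.109 (SD, n = 2). The intervals, 0.517 to 1.59 RPKM and 0.421 to 1.35 RPKM, include the threshold of 1 RPKM, so neither side of it can be given for Cnr2 at this depth. Per length, Cnr2 was 10.5-fold (2.42 to 95.5) above Cnr1 in uterus 1 and 6.52-fold (1.79 to 35.7) in uterus 2. Both libraries gave the same order, and the wide intervals come from the 2 and 3 reads of Cnr1.

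Genes of the cells in which these receptors are best known were measured beside them. Of 7 neuron and Schwann cell markers, 2 reached 1 RPKM in both uteri, and the list summed to 5.12 and 5.94 RPKM. Of 4 leukocyte markers, all 4 reached it, and they summed to 60.3 and 67.9 RPKM. Of the 5 B and plasma cell markers in the table, 2 reached it, and the list summed to 55.9 and 236 RPKM. Igj, which encodes the joining chain of antibodies, made up 53.2 and 229.7 RPKM of these sums and was the 1 marker of the list called between the uteri. Cnr2 did not follow the last sum. It was lower in uterus 2 by values that lie within counting error, with a fold of 0.837 (0.362 to 1.92). The part of these cells in the receptor levels was not tested.

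Of the anandamide genes, the synthetic Napepld lay above the hydrolytic Faah in both uteri. Napepld encodes the phospholipase D that releases anandamide from its membrane precursor (NM_178728, chromosome 5, 21168721 to 21207163, minus strand, 5 exons). With 87 reads in uterus 1 and 106 in uterus 2, it stood at 6.18 and 6.78 RPKM, or 6.48 ± 0.426 (SD, n = 2). Faah encodes the amide hydrolase that splits anandamide into arachidonic acid and ethanolamine (NM_010173, chromosome 4, 115669261 to 115690507, minus strand, 15 exons). It lay at 1.91 and 1.85 RPKM, or 1.88 ± 0.0471 (SD, n = 2), on 28 and 30 reads, which are double the smallest possible. The levels of the 2 genes did not overlap over the uteri. Napepld was 3.23-fold (2.09 to 5.13) above Faah in uterus 1 and 3.67-fold (2.43 to 5.71) in uterus 2, a comparison of levels per length within each library. RNA levels say nothing of enzyme activity.

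Of the genes for 2-arachidonoylglycerol, Daglb and Mgll had higher levels than Dagla. Dagla and Daglb encode the diacylglycerol lipases alpha and beta, which make this lipid from diacylglycerol, the alpha form being the main one in the brain. Daglb (NM_144915, chromosome 5, 144225361 to 144265310, plus strand, 15 exons) lay at 8.04 and 7.17 RPKM, or 7.61 ± 0.615 (SD, n = 2), on 100 and 99 reads. Dagla (NM_198114, chromosome 19, 10319755 to 10379367, minus strand, 20 exons) lay at 2.08 and 2.04 RPKM, or 2.06 ± 0.0281 (SD, n = 2), on 45 and 49 reads. Daglb was 3.86-fold (2.69 to 5.62) above Dagla per length in uterus 1 and 3.51-fold (2.47 to 5.05) in uterus 2. The beta form thus had the higher level in both animals.

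Mgll encodes monoacylglycerol lipase, which hydrolyses 2-arachidonoylglycerol to arachidonic acid and glycerol (NM_001166249, chromosome 6, 88674406 to 88778354, plus strand, 8 exons in the transcript with the same ends). Its level was 8.85 RPKM in uterus 1 and 5.38 RPKM in uterus 2, or 7.11 ± 2.45 (SD, n = 2). In uterus 1 it was the highest of the 7 genes, and in uterus 2 it stood behind Daglb and Napepld. Set against the sum of Dagla and Daglb, Mgll stood at 0.874 in uterus 1 and 0.584 in uterus 2. These ratios depend on the lengths used. With the lengths of the nearest annotated transcripts they were 1.09 and 0.730, which turns the order in uterus 1. The difference between the uteri in this ratio was not tested.

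The uteri were then compared gene by gene, asking only whether 2 libraries of 1 group differed by more than counting error. A two-sided exact binomial test of the recovered reads, with Benjamini-Hochberg adjustment over all 15154 genes with at least 6 reads, called 765 genes (5.05%) at an adjusted p under 0.05. Of these, 406 (2.68%) were higher in uterus 1 and 359 (2.37%) in uterus 2. With the smallest possible reads 579 genes were called, so these shares depend on the chosen common factors. Cnr1 had too few reads to enter. Of the 6 endocannabinoid genes tested, 1 was called, which is too few to set against the 5.05% of all genes.

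That gene was Mgll, with 157 reads in uterus 1 and 106 in uterus 2. Its level was 1.64-fold (1.28 to 2.12) higher in uterus 1, a log2 ratio of -0.71 with a pseudocount of 0.1 RPKM (uterus 2 over uterus 1), at an adjusted p of 0.0032 in the exact binomial test. Mgll is abundant in fat cells, and 4 fat cell markers were read beside it. Adipoq and Cidec were listed at 0 in both uteri, Plin1 and Lep had at most 1 read in either, and the list summed to 0.0801 RPKM in uterus 1 and 0.123 RPKM in uterus 2. Smooth muscle markers summed to 2025 and 2017 RPKM, stroma markers to 4904 and 4613 RPKM, epithelium markers to 257 and 289 RPKM and endothelium markers to 135 and 131 RPKM. Within these sums single markers were called in both directions by the exact binomial test. Lower in uterus 2, as Mgll was, were the collagen genes Col1a1 (1184 and 851 RPKM) and Col1a2 (988 and 857 RPKM), the actin gene Acta2 (653 and 592 RPKM) and the endothelial receptor gene Kdr (22.9 and 16.6 RPKM). Higher in uterus 2 were Dcn (456 and 578 RPKM), Myh11 (314 and 350.1 RPKM) and Krt18 (70.4 and 94.3 RPKM). Of the uterine markers, Pgr was called lower in uterus 2 (77.5 and 66.4 RPKM). Their part in the Mgll difference was not tested. In the annotation, 1 exon of Mgll shares 90 bases with Gm16628, a non-coding RNA on the opposite strand, and whether reads were counted by strand is not given in the sources used here.

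The other 5 tested genes were not called. The fold of uterus 2 over uterus 1 was 1.10 (0.819 to 1.47) for Napepld, 0.965 (0.557 to 1.68) for Faah, 0.981 (0.641 to 1.5) for Dagla and 0.892 (0.669 to 1.19) for Daglb. A difference of 2-fold lies outside each of these 4 intervals. For Faah this rests on the doubled reads, and with the smallest possible reads its interval widened to 0.434 to 2.16, which includes 2-fold in either direction. For Cnr2, and more so for Cnr1 at 1.35 (0.155 to 16.2), the interval was wide enough to include a level 2-fold lower in uterus 2.

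**Figure D3:**
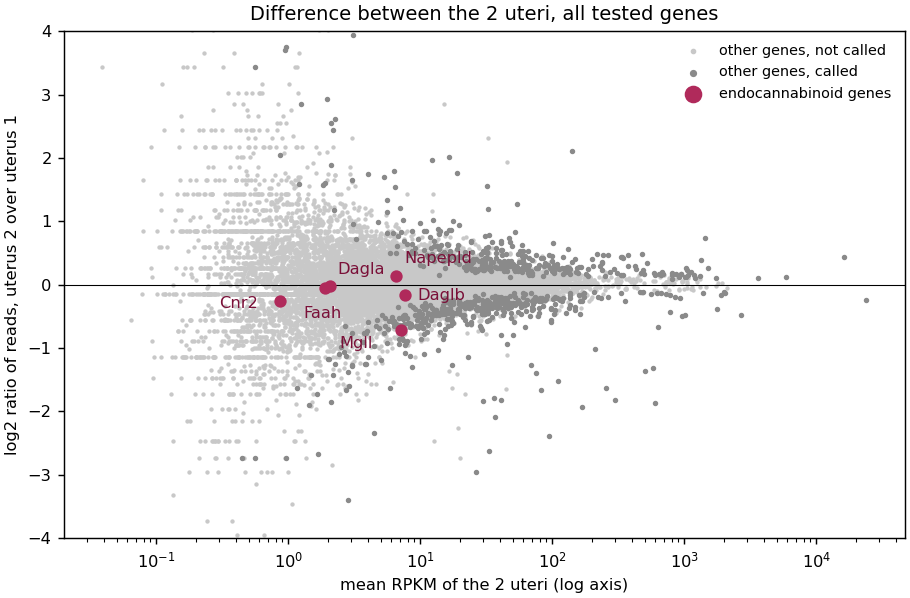
Log2 ratio of recovered reads, scaled to library size, of uterus 2 over uterus 1 against mean RPKM (log axis) for the genes tested. A library without reads was set to 0.5 reads, and 13 genes lie beyond the plotted range of 4 in either direction. Mgll lies at -0.72, among the called genes at its level, and the other 5 endocannabinoid genes lie near 0.

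Sequence shared with other genes was searched among annotated protein-coding transcripts. No stretch of 50 bases in the annotated protein-coding transcripts of Cnr1, Napepld, Faah, Dagla, Daglb or Mgll occurred in a protein-coding transcript of another gene on either strand. Non-coding transcripts such as Gm16628 were not part of this search. Cnr2 shared 25 of 3933 stretches (0.636%) with transcripts of 38 other genes. Cnr1 and Cnr2 shared none, nor did Dagla and Daglb. The length of the reads is not given in the sources used here, so 50 bases is a stand-in. None of the 7 genes overlapped another gene of the deposited table. The transcript lengths implied by the values were 5807 bases for Cnr1 and 5634 for Dagla, equal to the annotated transcripts with the same ends. Mgll had an implied 4628 bases, more than the 3676 of its transcript with the same ends, and the shorter length would raise its mean to 8.96 RPKM, above Daglb.

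A wider set of 58 genes that make, carry, bind or destroy these lipids was grouped by role. All 58 were in the table, and 46 (79.3%) reached 1 RPKM in both uteri. Their median was 6.43 RPKM in uterus 1 and 6.46 RPKM in uterus 2. Of the 50 with enough reads, 4 (8%) were called, all of them higher in uterus 2. Among all genes tested, 5.05% were called in either direction and 2.37% higher in uterus 2. A count of 4 is too few to set against these shares. Of the 4, Plcg2 was not called with the smallest possible reads. None of the 50 was called higher in uterus 1, where 1 gene (Dgkh) had an unadjusted p under 0.05 in the exact binomial test and 2.68% of all genes tested were called.

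Other enzymes of anandamide synthesis had a median of 6.48 ± 1.29 RPKM (SD, n = 2), and 7 of 10 reached 1 RPKM. These enzymes make the precursor lipid or open routes that bypass Napepld. Gde1, a glycerophosphodiesterase that acts after the hydrolase Abhd4, was highest by mean at 40.4 and 37.6 RPKM. Gdpd3, a lysophospholipase D, had 66 reads (16.1 RPKM) in uterus 1 and 216 reads (47.5 RPKM) in uterus 2. It was 2.95-fold (2.23 to 3.95) higher in uterus 2, with an adjusted p of 4.4e-14 in the exact binomial test. These reads rest on a chosen common factor. With the smallest possible reads, 11 and 36, the adjusted p in the exact binomial test was 0.032 and the interval of the fold 1.47 to 6.42. Hrasls5 was listed at 0 in both. The levels of Gde1 in both uteri, and of Gdpd3 in both, were above those of Napepld.

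Other hydrolases and oxygenases had a median of 6.16 ± 0.0267 RPKM (SD, n = 2), and 6 of 7 reached 1 RPKM. Alox15, a lipoxygenase that can oxygenate arachidonoyl lipids, had 225 reads (24.3 RPKM) in uterus 1 and 431 reads (41.9 RPKM) in uterus 2, 1.73-fold (1.47 to 2.04) higher in uterus 2 (exact binomial test, adjusted p 2.7e-09). Abhd12, a further hydrolase of 2-arachidonoylglycerol, lay at 30.2 and 31.7 RPKM, above Mgll in both uteri. Ptgs2, the inducible cyclooxygenase, was lowest at 0.378 and 0.170 RPKM on 6 and 3 reads.

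Other receptors for these lipids were also low by their median of 1.27 ± 0.0237 RPKM (SD, n = 2). Of these receptors 5 of 9 reached 1 RPKM, too few genes to tell this share from the 58.4% of all genes. The highest were the ion channel Trpv2 at 6.54 and 6.49 RPKM and the nuclear receptor Ppard at 6.32 and 4.89 RPKM. Trpv1, a channel that anandamide opens, was listed at 0 in both uteri. None of the 6 with enough reads was called by the exact binomial test, and none had an unadjusted p under 0.05.

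Receptor partners and G proteins had a median of 17.8 ± 3.34 RPKM (SD, n = 2), and 8 of 9 of them reached 1 RPKM. The inhibitory G protein subunits Gnai2, at 123.4 and 117.7 RPKM, and Gnai3, at 60.6 and 62.9 RPKM, were highest. They serve many receptors. Sgip1, which slows the uptake of CB1 into the cell, was lowest at 0.984 and 0.823 RPKM, near the levels of Cnr2. Gprasp1, a protein that sorts receptors to lysosomes, had 290 reads (12.7 RPKM) in uterus 1 and 494 reads (19.5 RPKM) in uterus 2, 1.53-fold (1.32 to 1.78) higher in uterus 2 (exact binomial test, adjusted p 6.5e-07).

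Among lipid carriers, 3 of 5 reached 1 RPKM. Scp2 was highest at 40.6 and 42.3 RPKM, followed by Fabp5 at 21.3 and 21.4 RPKM, and Fabp7 was listed at 0 in both. The list's median of 1.63 RPKM in uterus 1 and 4.77 RPKM in uterus 2 rests on 4 reads of the median gene in uterus 1 and 13 in uterus 2.

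Diacylglycerol, the substrate of Dagla and Daglb, is made by phospholipases C and used up by diacylglycerol kinases. Only RNA levels of the genes for these enzymes were read, and the supply of the lipid was not measured. All 9 phospholipase C genes reached 1 RPKM, with a median of 10.8 ± 0.536 RPKM (SD, n = 2). Plcg1 was highest at 27.3 and 29.2 RPKM, then Plcb3 at 23.3 and 24.4 RPKM, and Plcb2 was lowest at 2.03 and 3.11 RPKM. Plcg2, known from leukocytes, lay at 5.22 and 7.98 RPKM on 86 and 146 reads, 1.53-fold (1.16 to 2.02) higher in uterus 2 (exact binomial test, adjusted p 0.035). This call was lost with the smallest possible reads, at an adjusted p of 0.286. Of the 9 kinases 8 reached 1 RPKM, with a median of 7.39 ± 1.24 RPKM (SD, n = 2), and none was called, with Dgkh the 1 kinase at an unadjusted p under 0.05. Dgkd was highest at 19.2 and 19.2 RPKM, then Dgkz at 15.7 and 16.1 RPKM, and Dgkg lowest at 0.711 and 0.768 RPKM.

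Beside the 4 genes called in the wider set, the B and plasma cell markers had a sum 4.23-fold higher in uterus 2, nearly all of it from Igj. The other 4 of these 5 markers had 3 to 16 reads each and were not called. The leukocyte and epithelium sums were each 1.13-fold higher in uterus 2, but 1 of 4 leukocyte markers and 3 of 6 epithelium markers were lower there. Ovary and oviduct markers summed to 8.71 and 13.2 RPKM, and 2 of the 3 reached 1 RPKM in both uteri. They were Ovgp1, at 5.78 and 9.31 RPKM, and Star, at 2.93 and 3.87 RPKM, and neither was called. Cyp17a1 was listed at 0. Blastocyst markers summed to 1.5 and 0.336 RPKM, with Cdx2 listed at 0. The part of these cells in the 4 differences was not tested.

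**Figure D4:**
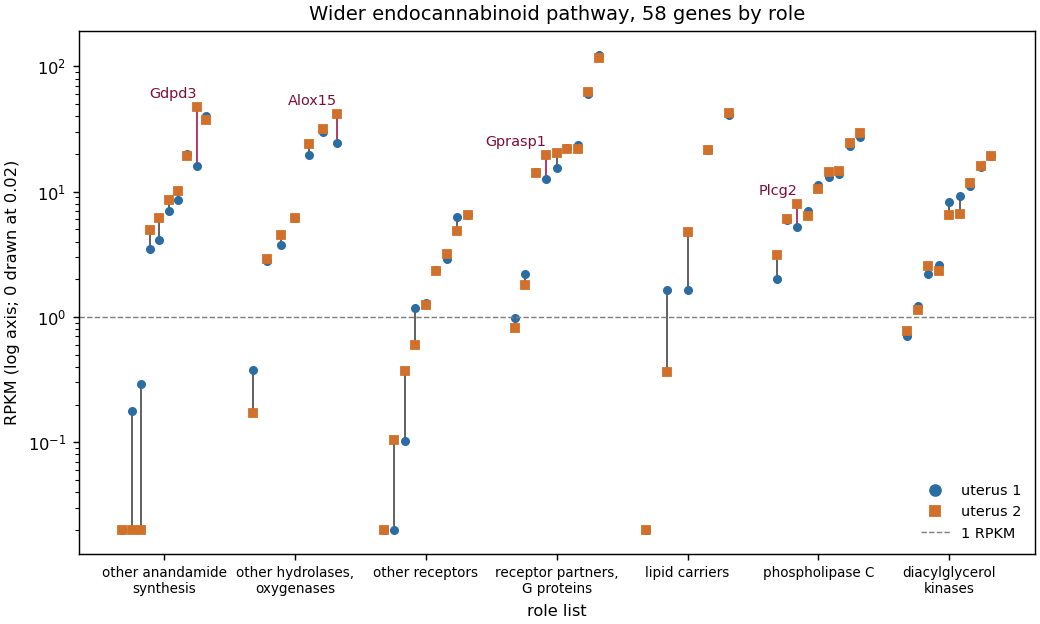
RPKM (log axis, 0 drawn at 0.02) of the 58 wider pathway genes by role, with uterus 1 as circles, uterus 2 as squares and a line joining the values of 1 gene. Genes are ordered by mean level within each role. The 4 called genes are named, and the other receptors lie lowest, with a median of 1.27 RPKM.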

How the data were processed

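RNA of whole uterus was sequenced from 2 mice. The labels state TRIzol extraction, TruSeq libraries and poly-A RNA on a HiSeq2500. The authors deposited RPKM values. The submitters' processing notes name TopHat, edgeR and mm9, with no role or order. The counting program and the use of strand are not given in the sources used here. Both deposited tables hold equal values for all 22740 genes of the main one, and the annotated one supplied coordinates, read as counted from 0 and printed from 1 on NCBIM37, which is mm9.

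Single-exon genes gave scaling totals of 3834174 and 4256101. With them, 96.3% of 646 and 95.7% of 649 single-exon values came out within 0.02 of a whole read. Ratios of whole numbers then gave reads for all 16104 genes above 0 in both libraries. A common factor was chosen so that the implied length was a whole number of bases closest to an annotated transcript whose ends lay within 200 bases, with a weight of 0.05 per natural log of the factor. A whole number of bases was reached for 15928 of the 16104 genes and not for the others. For Faah this doubled 14 and 15 reads to 28 and 30. For the 1205 genes with no annotated length the smallest possible reads were used.

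Detection meant 1 RPKM or more in both libraries. Reads were compared with a two-sided exact binomial test (scipy 1.17.1) over genes with at least 6 reads, tested on simulated data. It measures counting error of 2 libraries, not a condition. Intervals are Poisson or Clopper-Pearson. All 7 genes were named, and in each wider list the 2 highest genes, the lowest and those called. Abhd4, Dgkh, Plin1, Lep, Gm16628, Ovgp1, Star and the called tissue markers were named outside that rule, after their values were seen. The members and lists were chosen with earlier results of these data known. Thresholds, pseudocounts, the TPM scale, read minimums and left-out libraries were tried as alternatives. No protein sequence was used here. No column of values was left without a library.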

Additional observations from a re-analysis of the deposited data

How the results depend on the processing

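With the length of the nearest annotated transcript, an alternative chosen after seeing the data, Mgll (8.96 RPKM) stood above Daglb (7.68 RPKM), and the mean log2 ratio of Mgll over Dagla plus Daglb was -0.16, turning to above 0 in uterus 1. Thresholds of 0.5 and 2 RPKM gave 6 and 4 detected endocannabinoid genes against 5, and more than 3 reads in both gave 6. The TPM scale, which gives each library the same sum, multiplied levels to 0.250 (Cnr1), 2.06 (Cnr2), 15.3 (Napepld), 4.45 (Faah), 4.88 (Dagla), 18.0 (Daglb) and 16.8 (Mgll), by construction. Pseudocounts pull low genes together: the mean log2 ratio of Cnr1 over Cnr2 was -3.05, then -2.24 with 0.1 RPKM and -0.756 with 1 RPKM, and that of Faah over Napepld was -1.78, then -1.38 with 1 RPKM. Mgll was called under all 5 alternatives to the test, with an adjusted p from 0.0028 to 0.0038 in the exact binomial test. Leaving out either library moved means of 2 by less than 1 SD by construction. No paired analysis was possible because both libraries belong to a single group. Depth limits Cnr1, with 2 and 3 reads, and Cnr2, with 14 and 13.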
